A study of Columba livia with 19 samples.

Results

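The genes described here are 58 transcripts of the pigeon feather collar whose level was shifted in recessive red birds homozygous for the e2 allele. In those homozygous for the e1 allele the difference from wild type was under the limits given below. The 58 transcripts were chosen by their values. A gene was a member if its mean level in the 3 e2 birds of 2020 differed from that of the 5 wild-type birds of 2020 by at least 0.6 on the log2 scale, in either direction. The same difference had to be under 0.3 for the 3 e1 birds of 2020, and under 0.4 for the 3 e1 birds of 2017 against the 4 wild-type birds of 2017. All 3 e2 birds had to lie on one side of the 3 e1 and 5 wild-type birds of 2020, and the mean over the 12 birds of 2020 had to be at least 2 CPM (a gene's count scaled by the total count of the bird). Log2 differences between groups are of mean CPM after adding 0.5, and log2 levels of single birds are log2(CPM + 0.5). Fold changes by edgeR or DESeq2 are named as such. The deposited table holds 15392 genes, and 58 of them were members, 36 raised and 22 lowered in e2. The rule used every group, the carrier only through the mean over 12 birds. The values that chose the members are a description, and the calls given further on for the same contrasts are no test of the members.

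The series measured polyadenylated RNA in regrowing secondary flight feathers of domestic rock pigeons (Columba livia), from the collar left after the dermal pulp was discarded. The birds of 2020 were 3 recessive red e2 homozygotes (birds 5, 7 and 14), 3 recessive red e1 homozygotes (birds 6, 11 and 12), 1 wild-type carrier of a single e1 copy (bird 22) and 5 wild-type birds (00, 20, 21, 23 and 24). The birds of 2017 were 3 recessive red e1 homozygotes (birds 1, 3 and 4) and 4 wild-type birds (1, 2, 3 and 4). The labels give 2020 as the year of collection of one batch and 2017 as the year of sequencing of the other, and e2 birds are in the 2020 batch only. The labels give no sex, age, strain or kinship for any bird, and whether the e2 birds share ancestry cannot be told from them.

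Recessive red is a plumage colour of pigeons that make red to yellow pheomelanin in place of black to brown eumelanin. The e1 and e2 alleles are different deletions upstream of SOX10, a transcription factor gene of the neural crest lineage that switches on pigment genes in melanocytes. The collar is the ring of growing epidermis in which keratinocytes build the feather and melanocytes pass pigment to them. In such a mixed sample, fewer cells of a type and less RNA per cell cannot be told apart. The identifiers of the deposited table were looked up in a RefSeq table of 22830 pigeon genes and 0 of 15392 matched. Members are therefore given without gene names, functions, positions or sequences, and markers of the collar's cell types were not analysed here. The identifiers of the 2 raised and 2 lowered members with the largest e2 difference are printed, and other members are given by their rank on that difference within their direction.

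Total counts per bird ranged from 13559606 to 23168538. In 2020 the 100 genes with most counts took 27.2% of the counts in e2 bird 5 and 26.4% in e1 bird 6, against 20.2% to 22.7% in the other 10 birds, so both alleles hold a library that stands apart. Without these 2 birds, a setting added after the data were seen, the rule gave 242 genes, of which 45 were among the 58. The condition on one side then covers fewer birds, and the cause of the rise was not tested.

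Of the 15392 genes, 11339 had a mean of at least 2 CPM in 2020. The e2 condition left 1051 of these, and the condition on e1 of 2020 left 320. The condition on 2017 left 258, and the condition on the side of each bird left 58. The smallest e2 differences among the members were 0.601 in the raised member of rank 36 and -0.602 in the lowered member of rank 22. Among genes that met all other conditions, the nearest outside was at 0.594. For e1 of 2020 the member nearest the limit was at 0.27 and the nearest such gene outside at -0.305. For e1 of 2017 these were -0.361 and -0.401.

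The e2 shifts were modest. Over the 36 raised members the log2 difference of e2 from wild type ranged from 0.60 to 1.25 with a median of 0.74, and over the 22 lowered members from -1.33 to -0.60 with a median of -0.79. Over all 11339 genes of at least 2 CPM the median was -0.02. A log2 difference of at least 1 in size was reached by 9 members (15.5%), 3 raised and 6 lowered. It was reached by 2.83% of the 11339 genes, and the limit of 0.6 in the rule itself raised the share of the members. The median log2 difference of e1 from the same wild-type birds, which the rule kept under 0.3, was 0.13 over the raised and -0.14 over the lowered members. It was positive in 27 and negative in 9 raised members, and negative in 17 and positive in 5 lowered members. Over all 11339 genes 46.4% were positive. Both alleles were set against the same wild-type birds, and this lean of e1 to the side of e2 was not tested. The log2 difference of e2 from e1 ranged from 0.41 to 1.52 over the raised and from -1.28 to -0.36 over the lowered members.

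**Figure D1:**
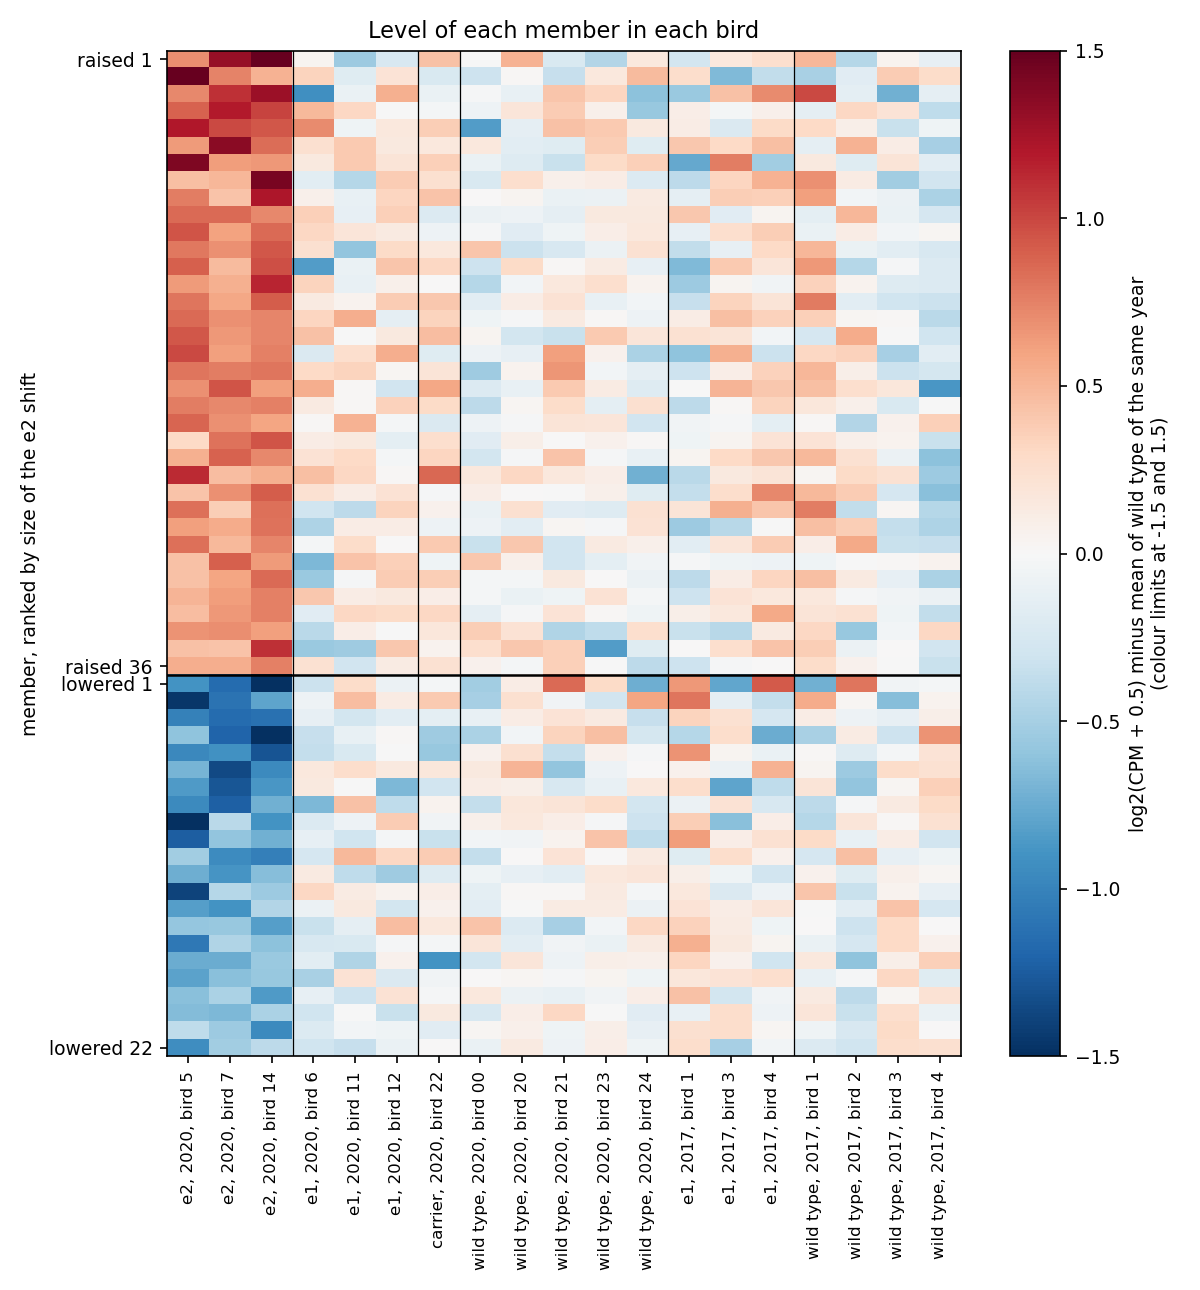
Level of each of the 58 members (rows, 36 raised above 22 lowered, ranked by the size of the e2 difference) in each of the 19 birds (columns), as log2(CPM + 0.5) minus the mean of the wild-type birds of the same year. The 3 e2 columns carry the colour by which the members were chosen, and the 2017 columns differ from one another. Of the 36 raised members, wild-type bird 1 of 2017 lay above in 29 and wild-type bird 4 below in 31.

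Most members were of low abundance. The mean level in 2020 ranged from 2.26 to 537 CPM over the raised members, with a median of 6.88 CPM, and from 2.05 to 113 CPM over the lowered members, with a median of 9.91 CPM. Between 2 and 5 CPM lay 23 of the 58 members (39.7%), where 10.0% of the 11339 genes lay, and at 100 CPM or above lay 4 members (6.90%), against 20.5% of the genes. The smallest count of a member in any bird was 7.

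The raised member with the largest e2 difference was A306_00011357. It had 5.97, 9.36 and 12.3 CPM in e2 birds 5, 7 and 14, 3.59, 2.23 and 2.88 CPM in e1 birds 6, 11 and 12, and 4.89 CPM in the carrier, against 3.47, 5.22, 2.89, 2.43 and 3.93 CPM in wild-type birds 00, 20, 21, 23 and 24. Every e2 bird lay above every other bird of 2020, and e2 bird 5 was the closest to wild-type bird 20. The e2 birds averaged 9.22 ± 3.18 CPM (SD, n = 3) and the e1 birds of 2020 averaged 2.90 ± 0.68 CPM (SD, n = 3), while the wild-type birds of 2020 averaged 3.58 ± 1.08 CPM (SD, n = 5). The log2 difference from wild type was 1.25 for e2 and -0.27 for e1. The e2 birds together held 488 counts of A306_00011357, a pooled 9.28 CPM with a 95% Poisson interval of 8.48 to 10.1, and the wild-type birds 294 counts, a pooled 3.59 CPM with an interval of 3.19 to 4.02. Such intervals cover counting error only.

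In 2017 A306_00011357 was rarer in both phenotypes. It had 1.25, 1.86 and 2.00 CPM in e1 birds 1, 3 and 4, against 2.48, 1.06, 1.68 and 1.44 CPM in wild-type birds 1, 2, 3 and 4. These 7 birds all lay below the 12 birds of 2020 except that wild-type bird 1 of 2017 passed e1 bird 11 and wild-type bird 23.

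The raised member of second rank, A306_00008014, was uneven among the e2 birds. It had 14.4, 7.12 and 6.01 CPM in e2 birds 5, 7 and 14, 5.21, 3.51 and 4.72 CPM in e1 birds of 2020, and 3.39 CPM in the carrier, against 3.15, 4.10, 3.09, 4.57 and 5.83 CPM in wild-type birds 00, 20, 21, 23 and 24. Bird 5 was far above the others, and bird 14 lay just above wild-type bird 24. The e1 birds of 2017 had 7.91, 3.93 and 4.95 CPM and the wild-type birds of 2017 had 4.49, 5.77, 8.63 and 8.02 CPM. Of these 7 birds 3 reached the lowest e2 bird, so the separation seen in 2020 did not extend to the levels of 2017. The log2 difference of e2 from wild type was 1.06.

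The lowered member with the largest e2 difference, A306_00013886, was the least abundant of the 4. It had 1.05, 0.791 and 0.363 CPM in e2 birds 5, 7 and 14, from 19, 12 and 7 counts. The e1 birds of 2020 had 1.79, 2.97 and 2.21 CPM and the carrier 2.32 CPM, against 1.51, 2.61, 4.70, 3.005 and 1.23 CPM in wild-type birds 00, 20, 21, 23 and 24. The e2 birds were lowest, but wild-type bird 24 stood close to e2 bird 5, and wild-type birds varied over a wide range. The log2 difference of e2 was -1.33, with a mean of 0.735 ± 0.347 CPM in e2 (SD, n = 3), against 2.61 ± 1.38 CPM in the 5 wild-type birds (SD). In 2017 the e1 birds had 4.01, 1.17 and 4.95 CPM and the wild-type birds 1.24, 4.51, 2.27 and 2.31 CPM, all above the e2 birds.

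The lowered member of second rank, A306_00011385, had 0.829, 1.19 and 1.61 CPM in e2 birds 5, 7 and 14, 2.95, 4.53 and 3.47 CPM in e1 birds of 2020, and 4.26 CPM in the carrier, against 2.08, 3.79, 3.02, 2.48 and 4.99 CPM in wild-type birds 00, 20, 21, 23 and 24. Each e2 bird lay below each other bird of 2020 and of 2017, where the lowest bird, wild-type bird 3, had 1.86 CPM. The log2 difference of e2 was -1.14.

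**Figure D2:**
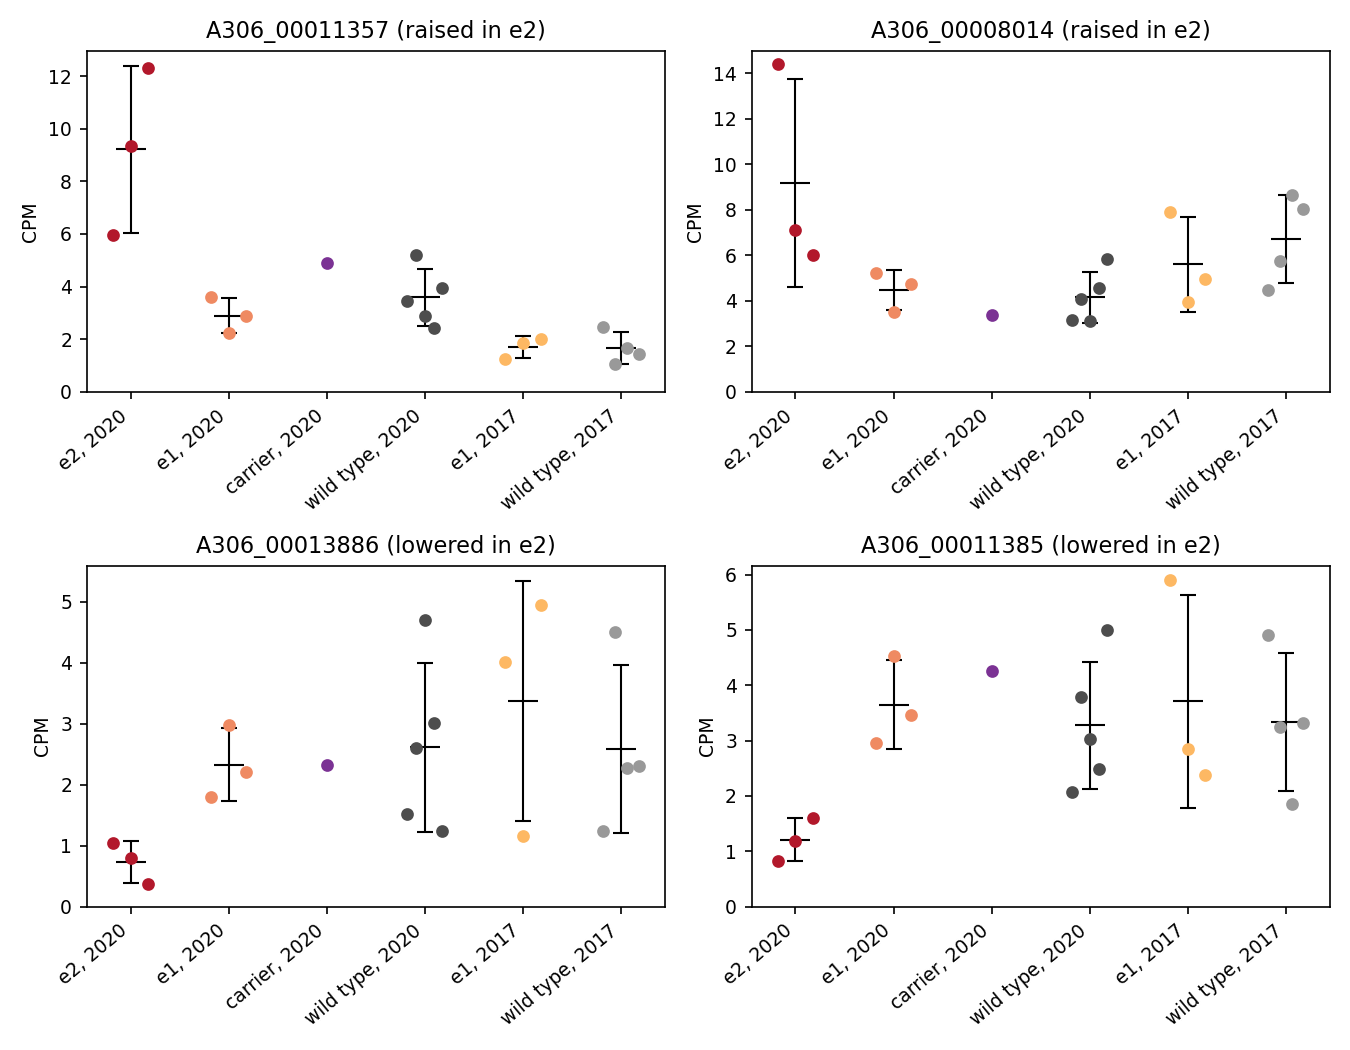
CPM of the 2 raised and 2 lowered members with the largest e2 difference, by group; points are birds, horizontal marks are means and bars are 1 SD, with a single carrier. In A306_00008014 e2 bird 5 at 14.4 CPM stands above the other 2 e2 birds, and in A306_00013886 the wild-type birds of 2020 spread from 1.23 to 4.70 CPM.

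Among the remaining members, the lowered member of rank 3 had the widest gap between e2 and the other birds of 2020. It had 2.65, 2.37 and 2.44 CPM in e2 birds 5, 7 and 14, 5.38, 4.80 and 5.24 CPM in e1 birds of 2020, and 5.27 CPM in the carrier, against 5.42, 6.397, 6.85, 6.53 and 4.54 CPM in wild-type birds 00, 20, 21, 23 and 24. The highest e2 bird lay 0.68 log2 units below the lowest of the 8 e1 and wild-type birds, and the 7 birds of 2017 had 4.63 to 7.21 CPM. The widest gap among the raised members, 0.39 log2 units, was in the raised member of rank 4, which had 204, 253 and 224 CPM in e2 birds and 155, 137 and 110 CPM in e1 birds of 2020, against 105, 125, 144, 117 and 74.4 CPM in wild-type birds of 2020. It lay at 64.3 to 104 CPM in the 7 birds of 2017.

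The raised member of rank 21 was even among the e2 birds, with 20.4, 19.8 and 20.2 CPM in e2 and 13.03, 11.96 and 15.2 CPM in e1 of 2020, against 8.88, 12.05, 14.4, 10.6 and 14.03 CPM in wild type of 2020. The most abundant member, the raised member of rank 11, had 843, 668 and 790 CPM in e2 birds 5, 7 and 14 and 544, 499 and 484 CPM in e1 birds of 2020, against 433, 392, 420, 471 and 489 CPM in wild-type birds 00, 20, 21, 23 and 24. These 4 members were singled out after their values were seen.

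For most members the gap was narrow. The gap between the nearest e2 bird and the nearest e1 or wild-type bird of 2020 had a median of 0.15 log2 units over the raised and 0.16 over the lowered members. It was under 0.1 in 17 of the 58 members and at least 0.3 in 6, against 99.1% and 0.238% of the 11339 genes, a contrast that the rule itself made. The nearest of the 8 other birds was an e1 bird in 38 of the 58 members (65.5%), against 69.8% over the 11339 genes when the side is set by the e2 difference of each gene. The spread within e2, as the SD over the mean in CPM, had a median of 13.4% over the raised and 19.6% over the lowered members. In wild type of 2020 it was 19.9% and 14.7%.

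No single e2 bird was the farthest in nearly all members. Among raised members bird 14 was farthest from the other groups in 17 (47.2%), bird 5 in 13 (36.1%) and bird 7 in 6 (16.7%). Among lowered members the counts were 7 (31.8%), 8 (36.4%) and 7 (31.8%). Over the 11339 genes, with the side set by the e2 difference of each gene, the shares were 29.8%, 46.0% and 24.2%. The shares over the genes join both directions, and those of the members come from the values that chose them. Nothing is therefore read from their difference, and no test was made. As medians over the raised members of the log2 level relative to the mean of the 2020 wild-type birds, e2 birds 5, 7 and 14 stood at 0.77, 0.67 and 0.81, and e1 birds 6, 11 and 12 at 0.14, 0.08 and 0.15. Wild-type birds 00, 20, 21, 23 and 24, each set against the other 4, stood at -0.09, -0.02, 0.07, 0.08 and -0.06. Over the lowered members the e2 birds stood at -0.84, -0.82 and -0.81, the e1 birds at -0.21, -0.06 and -0.02, and the wild-type birds at -0.10, 0.10, -0.04, 0.10 and -0.06. Bird 6, the e1 bird whose library stood apart, was the lowest of the e1 birds in the lowered members, and its median over all 11339 genes was -0.12. In the raised members it was the middle e1 bird. The e2 bird whose library stood apart, bird 5, was the lowest e2 bird in the lowered members, with a median of -0.08 over all genes. The cause was not tested.

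The rule fixed this pattern, so members called in the contrasts it used lend the list no support. Between e2 and wild type of 2020, edgeR at an adjusted p under 0.05 called 16 of the 58 members, 11 higher and 5 lower, and 1.72% of 13269 genes tested, 1.05% higher and 0.671% lower. Leaving out e2 bird 14 gave 1 member and 0.718% of the genes. Leaving out wild-type bird 00, 20, 23 or 24 gave 4, 5, 8 and 7 members in that order, and 1.04%, 0.966%, 1.08% and 1.21% of the genes. DESeq2 called 45 members and 5.25% of the genes. Between e2 and e1, edgeR called 0 members and 0.0226% of the genes, 0.00754% higher and 0.0151% lower, and DESeq2 called 3 members and 0.203% of the genes. Lying on one side of the e1 birds, as the rule required, thus did not make a member pass the edgeR threshold between the alleles. An unadjusted p under 0.05 by edgeR was found in 49 members and in 6.03% of the genes.

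**Figure D3:**
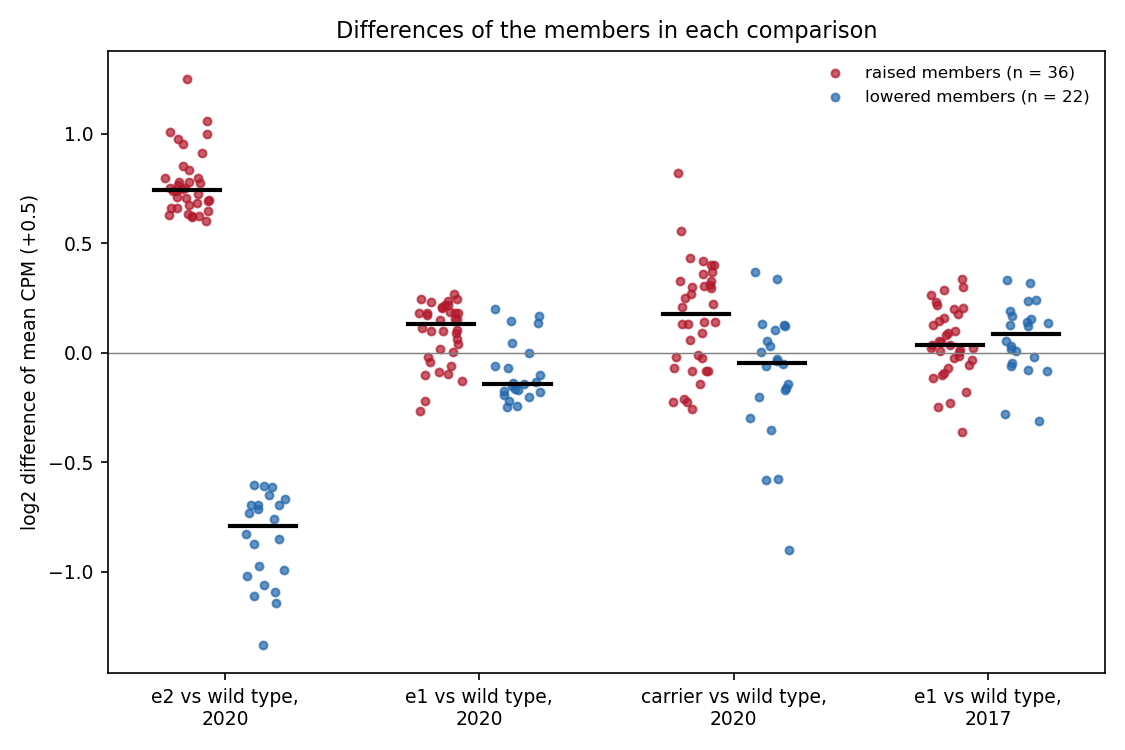
Log2 difference of mean CPM (after adding 0.5) of each member in 4 comparisons: e2, e1 and the carrier against the wild-type birds of 2020, and e1 against the wild-type birds of 2017; black lines are medians over 36 raised and 22 lowered members. The e2 values lie beyond 0.6 and the e1 values are small because of the limits in the rule. The e1 values of 2020 lie mostly on the side of e2, above 0 in 27 raised and below 0 in 17 lowered members. The rule set no limit on the carrier values, from 1 bird. They are taken against the same 2020 wild-type birds that served in the choice.

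The first values left free by the rule are the directions in the birds of 2017, since it limited the size of the e1 difference there and not its sign, and these comparisons share no birds with those of 2020. Of the raised members 24 of 36 (66.7%) had a positive log2 difference of e1 from wild type in 2017, and of the lowered members 15 of 22 (68.2%) had one. Over all 11339 genes 66.7% were positive. The direction of e1 in 2017 in either list was near that of the genes at large, and no test was made. The median log2 difference was 0.04 over the raised and 0.09 over the lowered members, against 0.07 over all genes. With TMM-scaled libraries the median over all genes was 0.003. The excess of positive genes in CPM thus depends on the scaling and is not read as a rise in e1.

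The birds of 2017 differed among themselves in the raised members. As the median over the raised members, e1 birds 1, 3 and 4 of 2017 stood at -0.22, 0.17 and 0.27 relative to the mean of the 4 wild-type birds of that year. Wild-type birds 1, 2, 3 and 4, each against the other 3, stood at 0.41, 0.10, -0.07 and -0.38. The groups overlapped. The SD between wild-type birds of this median was 0.08 in 2020 (n = 5) and 0.33 in 2017 (n = 4), and the rule set a condition on each bird of 2020 alone. Over the lowered members the e1 birds of 2017 stood at 0.26, 0.08 and -0.06, and the wild-type birds at 0.02, -0.25, 0.11 and 0.08.

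The level of the e2 birds was also set beside all 16 other birds, the carrier and the 7 birds of 2017 included, although the years differ in their libraries. In 34 of the 58 members (58.6%), 22 raised and 12 lowered, all 3 e2 birds lay beyond all 16 others, where 0.829% of the 11339 genes did so. The rule had already placed the e2 birds beyond 8 of the 16, and nothing is read from that gap. In the other 24 members at least 1 bird of 2017 reached or passed the nearest e2 bird. In the raised members of ranks 25 and 29 and the lowered member of rank 21 the mean of the 2017 wild-type birds reached or passed the e2 mean. The raised member of rank 25 averaged 9.03 ± 2.52 CPM in e2 (SD, n = 3), 5.39 ± 1.40 CPM in wild type of 2020 (SD, n = 5) and 9.62 ± 2.40 CPM in wild type of 2017 (SD, n = 4). The lowered member of rank 21 averaged 83.6 ± 16.4 CPM in e2 (SD, n = 3), 128 ± 8.01 CPM in wild type of 2020 (SD, n = 5) and 76.1 ± 11.8 CPM in wild type of 2017 (SD, n = 4). In the most abundant member all 7 birds of 2017, from 692 to 975.3 CPM, lay above e2 bird 7.

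The difference between the years was then tested in wild-type birds. The rule did not use it, but both groups were its references, so the counts lend the members no support. By edgeR 11 of the 58 members (19.0%) differed between wild type of 2020 and of 2017, where 31.7% of 12573 genes tested were called. Of these 3 were higher in 2020, where 15% of the genes were called higher, and 8 were lower, where 16.7% were called lower. The members were less abundant than the genes at large, and the share of genes called varied with the filter on counts. It was 25.3% with no filter and 37% at a mean count of at least 50. The shares of members and of genes are therefore not matched for abundance. The fold changes that follow are a description, since low wild-type levels in 2020 helped a gene to enter the raised list and high ones the lowered list. The edgeR log2 fold change of 2020 over 2017 in wild type was 0.94 ± 0.29 for A306_00011357 and -0.87 ± 0.26 for A306_00008014 (SE). It was -0.96 ± 0.11 (SE) for the most abundant member. For A306_00013886 and A306_00011385 it was -0.17 ± 0.45 and -0.19 ± 0.32 (SE), in each within 1 SE of 0.

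The count of 11 became 6 without wild-type bird 00 or 20 of 2020, where 25.4% and 27.3% of the genes were called. It became 6 without wild-type bird 2 of 2017 and 7 without wild-type bird 3 of 2017, where 24.2% and 27.9% of the genes were called. The median log2 difference of all 11339 genes between the wild types of 2020 and 2017 was 0.17 in CPM and 0.02 with TMM-scaled libraries. With TMM scaling, the median was -0.18 over the raised members, of which 10 were positive and 26 negative. Over the lowered members it was 0.09, with 13 positive and 9 negative. Of all 11339 genes 5827 were positive and 5512 negative on that scale. In CPM 17 raised members were positive and 19 negative, and 17 lowered members were positive and 5 negative, where 65.2% of the genes were positive. The counts thus depend on the scaling, and no test was made. Batch, year and birds cannot be told apart.

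**Figure D4:**
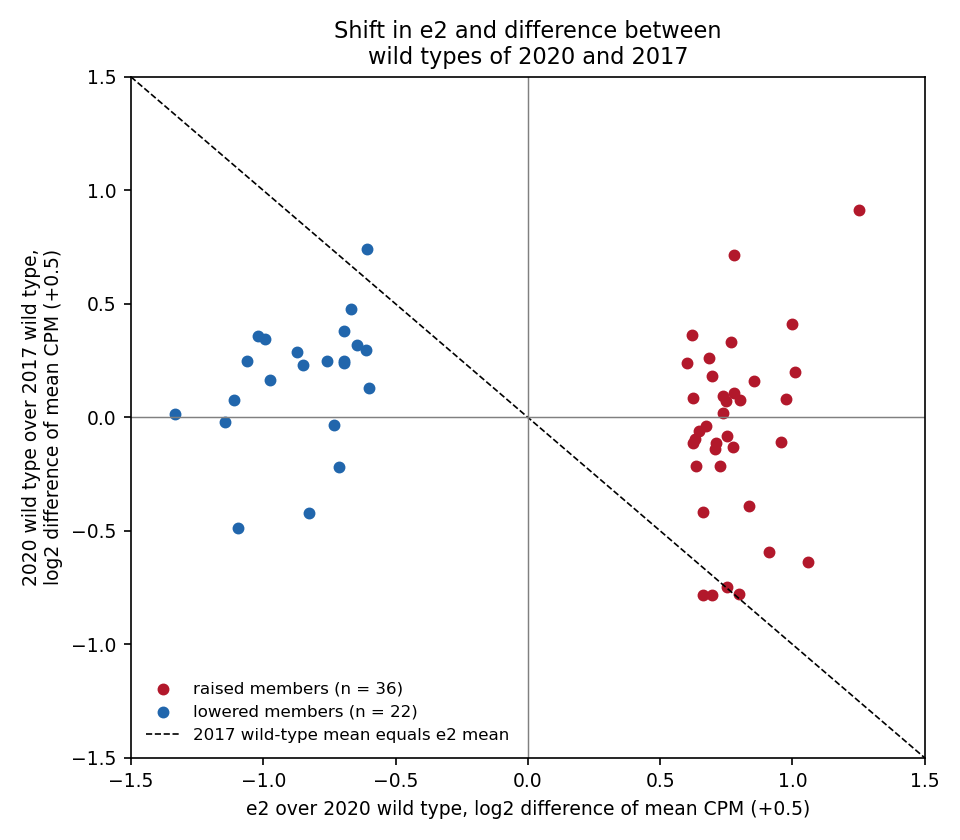
Log2 difference of e2 from wild type of 2020 (horizontal) and of wild type of 2020 from wild type of 2017 (vertical), both of mean CPM after adding 0.5, for the 58 members; both axes hold the 2020 wild-type birds. Members beyond the dashed line, on its lower left for the raised and its upper right for the lowered, have a 2017 wild-type mean past the e2 mean, as in the raised members of ranks 25 and 29 and the lowered member of rank 21.

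The carrier of e1 was the only bird left out of the differences that chose the members, and it entered only the mean over 12 birds. Its log2 difference from the 5 wild-type birds of 2020 had a median of 0.18 over the raised members, with a range of -0.26 to 0.82, and of -0.05 over the lowered members, with a range of -0.90 to 0.37. Over all 11339 genes the median was 0.02. The carrier lay above all 5 wild-type birds in 12 of the 36 raised members, where it did so in 12.6% of the genes, and below all 5 in 1. It lay below all 5 in 6 of the 22 lowered members, where it did so in 7.72% of the genes, and above all 5 in 1. The carrier and the e2 birds were measured against the same 5 wild-type birds, which had served in the choice, so these counts cannot be read as a share of the e2 shift in the carrier.

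The carrier reached the nearest e2 bird in 2 members (3.45%), against 64.1% of the 11339 genes, a gap that the rule made by placing the e2 birds at the extreme. In the raised member of rank 25 it had 9.90 CPM, against 11.9, 7.38 and 7.77 CPM in e2 birds 5, 7 and 14. In the lowered member of rank 17 it had 1.505 CPM, against 1.71, 1.71 and 2.02 CPM in the e2 birds. The carrier has no replicate, so its values carry no test.

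Leaving out each of the 18 birds of the rule in turn kept between 46 and 57 of the 58 members. The genes that met the rule then numbered 53 to 290. They were 209 without e2 bird 5, 290 without e2 bird 7 and 110 without e1 bird 6. The 51, 56 and 52 members kept there, in that order, were a minority. There were 11 members, 8 raised and 3 lowered, that were kept with each of the 18 birds left out. They included the most abundant member, the raised member of rank 21 and the lowered member of rank 3, and none of the 4 members printed by identifier. Their log2 difference of e2 from wild type ranged from 0.70 to 0.80 in the raised and from -1.11 to -0.71 in the lowered. Leaving out a bird cannot break the condition on one side. A member could be lost only through the limits on the differences or on the mean level, so being kept is no test.

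In the authors' deposited table, a DESeq2 comparison whose groups and model are not given in the file, 3 members had an adjusted p under 0.05, the raised members of ranks 6, 11 and 16, where 6.11% of 14283 genes had one. The log2 fold changes in the authors' deposited table were 0.46 for A306_00011357, 0.39 for A306_00008014, -0.33 for A306_00013886 and -0.26 for A306_00011385, with adjusted p of 0.391, 0.441, 0.683 and 0.687 by DESeq2.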

How the data were processed

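Per the file headers, the authors deposited whole-number counts of 15392 genes (identifiers headed Cliv2.1) in 19 birds. The same deposited table holds DESeq2 results, namely log2 fold changes with their errors, test scores, p-values and a mean signal per gene. The submitters' processing notes name DESeq2 and no version. Its model, the aligner, the counting program and the strand setting were not found in the labels or headers. Total counts per bird were 13559606 to 23168538. Groups came from the genotype and batch labels, batch 1 being called 2017 by its year of sequencing and batch 2 called 2020 by its year of collection.

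CPM was the count scaled by the column sum. Genes were fitted in edgeR 4.0.16 (R 4.3.3) with filterByExpr, TMM and the quasi-likelihood test, with p-values adjusted by Benjamini and Hochberg over all genes tested. The 12 birds of 2020 shared a fit with a coefficient per genotype, and the wild-type birds of both years had a second. The SE of an edgeR fold change was its size over the square root of the F value of the quasi-likelihood test. The code was tested on simulated data. Alternatives were other scalings, filters and rule settings, DESeq2 1.42.0 and each bird left out. The members, lists and tests were chosen with earlier results of these data known. Printed identifiers are of the 2 largest e2 differences in each direction. The planned lists of melanocyte, keratinocyte, pulp and blood genes could not be used, as 0 identifiers matched. Labels name separate birds, so p-values measure the spread between birds.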

Additional observations from a re-analysis of the deposited data

Results flagged for a closer look

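The carrier of e1 was in the fit of the 2020 birds, but in neither group of any contrast tested. Over the 36 raised members it stood at a median of 0.21 log2 units relative to the 5 wild-type birds of 2020. It was above each of these birds, which ranged from -0.09 to 0.08. The e2 birds stood at 0.67 to 0.81 and the e1 birds of 2020 at 0.08 to 0.15. Over the lowered members the carrier stood at -0.03, within the wild-type range of -0.10 to 0.10. Over all 11339 genes the median of the carrier was 0.03. Low wild-type levels in 2020 helped a gene to enter the raised list, so the place of the carrier above these birds is no test. Each wild-type bird was set against the other 4 and the carrier against all 5, and the difference of a single carrier was not tested. In the groups of 4 and 5 wild-type birds, 22 comparisons looked for a single bird far from the rest in library measures, the 4 members printed by identifier, and the summed and median levels of both lists, and 0 birds were found.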

How the results depend on the processing

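The count of 58 members became 35 with a minimum mean of 5 CPM, 21 with an e2 limit of 0.8, 34 with group medians in place of means (26 of the 58 kept) and 242 without e2 bird 5 and e1 bird 6, an alternative added after the data were seen. With each bird left out in turn it was 53 to 290. It was 209 without e2 bird 5, 290 without e2 bird 7 and 110 without e1 bird 6, but 79 without e2 bird 14 and 59 and 77 without e1 birds 11 and 12, and the cause was not tested. With TMM-scaled libraries it was 66, with 51 of the 58 kept. Between e2 and wild type, edgeR called 16 members and 1.72% of the genes tested, and DESeq2 called 45 members and 5.25%. With each bird left out, edgeR called 1 to 18 members and 0.718% to 2.3% of the genes. Between e2 and e1, edgeR called 0 members and 0.0226% of the genes, and DESeq2 called 3 members and 0.203%. With each bird left out, edgeR called 0 members and at most 0.0234% of the genes. Between wild types of 2020 and 2017, edgeR called 11 members and 31.7% of the genes. With each bird left out these were 6 to 12 members and 24.2% to 30.6% of the genes. The median of the carrier kept its sign in both lists under TMM scaling and a pseudocount of 1. No paired analysis was possible because the groups compared by a test share no bird numbers. With 3 e2 birds and 23 members under 5 CPM, counts and the number of birds limit what single members can show.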

Other observations

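The rule was also applied with the alleles exchanged and with no condition on 2017 in either case, a comparison chosen after the data were seen. It then gave 26 genes shifted in e1 and not in e2, 8 raised and 18 lowered, and 72 genes shifted in e2 and not in e1, 45 raised and 27 lowered. Both counts use the same 5 wild-type birds and 3 birds of each allele, and their difference was not tested.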
